A study of Mus musculus with 7 samples.

Results

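The 37 genes of the mouse mitochondrial genome were read out in RNA from mammary tumours. They are all the genes with a symbol starting with mt-, taken from a table of 55487 gene identifiers, and comprise 13 mRNAs, 22 tRNAs and 2 rRNAs. All 37 lie on chromosome M of GRCm38, and the rule reads the symbol alone. Reading the annotated strand, 28 of them (12 mRNAs, both rRNAs and 14 tRNAs) are heavy-strand transcripts and 9 (mt-Nd6 and 8 tRNAs) are light-strand transcripts, each group being named for the promoter it is read from.

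The tumours grew in the mammary fat pad of wild-type BALB/c mice from 4T1-12b(luc) cells, a transfected line of mouse mammary carcinoma cells. Treatment began at a tumour volume of about 150 mm3 and consisted of 50 µl injected into the tumour on alternate days, 6 times in all. Every library is labelled day 12. The saline group (n = 3) received saline. The Cont sEV group (n = 1) received small extracellular vesicles, membrane-bound particles that cells release, from 4T1 cells treated with DMSO, the solvent. The TIS sEV group (n = 3) received vesicles from 4T1 cells made senescent by 100 ng/ml of nocodazole, a microtubule poison (spelled Nocodozole in the labels), for 72 h, and both donor cultures were then kept for 72 h in fresh medium. All groups carried the same tumour line and received intratumoral injections, and the vesicles come from the parental line of the tumour. The labels number the replicates without naming animals, so p-values measure the spread between these libraries, which may be technical. In the gene-by-gene fits (limma, all 7 libraries), each gene's spread was read from a trend with abundance over all genes. The gene's own spread did not enter (infinite prior degrees of freedom). The columns of the table abbreviate the vesicle groups (CE and NcE), and their reading as Cont sEV and TIS sEV is not spelled out in the labels. The Cont sEV library is a single one, and its comparisons borrow the spread of the other groups.

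Mitochondrial DNA is a compact circle that cells transcribe from promoters on both strands as long precursor RNAs. The tRNAs lie between most of the other genes, and their excision frees most mRNAs and the rRNAs. Nuclear-encoded enzymes then polyadenylate, modify or degrade these RNAs. No tRNA lies where mt-Atp6 meets mt-Co3 (chrM:8607), or where mt-Nd6 ends within mt-Nd5 (chrM:13552). The mRNAs all code for subunits of the respiratory chain and ATP synthase, and the rRNAs and tRNAs build the ribosome and the decoding system that translate them. Light-strand transcription yields the single mRNA mt-Nd6, a few tRNAs, and long antisense stretches that are normally degraded quickly.

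The sequences below mark the places where the measurement of these genes is least simple. The coding sequences of mt-Atp8 and mt-Atp6 share 43 bases and travel on 1 mRNA, as do those of mt-Nd4l and mt-Nd4, which share 7. Reads from the shared bases (in capitals, chrM:7927-7969 and chrM:10167-10173) therefore fit both genes of a pair. The windows shown, with flanking bases in lower case, are chrM:7907-7989 and chrM:10147-10193 (plus strand, GRCm38).
mt-Atp8/mt-Atp6: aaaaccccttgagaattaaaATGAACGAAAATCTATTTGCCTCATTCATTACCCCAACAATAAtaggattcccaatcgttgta
mt-Nd4l/mt-Nd4: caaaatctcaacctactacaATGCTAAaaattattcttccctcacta
The strand of mt-Nd6 shows in its composition, shown here by the first 60 bases of its transcript (chrM:14011-14070, minus strand) and of mt-Cytb, its neighbour on the other strand (chrM:14145-14204, plus strand), with every G in capitals: 12 in mt-Nd6 and 3 in mt-Cytb.
mt-Nd6: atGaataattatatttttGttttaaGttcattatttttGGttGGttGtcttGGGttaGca
mt-Cytb: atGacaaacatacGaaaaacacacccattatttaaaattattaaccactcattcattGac
Over the whole transcripts, G made up 28.1% of mt-Nd6 against 5.88% to 16.1% of the 12 heavy-strand mRNAs, and C made up 5.97% against 22.1% to 29.97%.

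A run of nuclear DNA on chromosome 1 carries 7 annotated pseudogenes that match mitochondrial mRNAs over nearly their whole length at 99% identity or more. They are Gm28439 (mt-Nd4), Gm10222 (mt-Nd4l), Gm28438 (mt-Nd3), Gm28437 (mt-Co3), Gm10925 (mt-Atp6), Gm28661 (mt-Co2) and Gm29216 (mt-Co1), between positions 24611535 and 24616197 on the minus strand. Across these alignments, 5 copies had no mismatch, and the other two had 1 each: A1066T in Gm29216 against mt-Co1 and T3C in Gm28438 against mt-Nd3, counted from the first base of the mitochondrial gene, whose base stands first. The windows around them (mt-Co1 at chrM:6390-6423 plus strand, Gm29216 at chr1:24616155-24616188 minus strand, mt-Nd3 at chrM:9459-9491 plus strand, Gm28438 at chr1:24613087-24613119 minus strand) have the differing base in capitals and show how little there is to tell gene and copy apart.
mt-Co1: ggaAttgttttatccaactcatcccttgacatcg
Gm29216: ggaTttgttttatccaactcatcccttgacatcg
mt-Nd3: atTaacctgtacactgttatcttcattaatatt
Gm28438: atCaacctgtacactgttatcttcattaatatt
Reads from most of these mRNAs can therefore be assigned to either, and the values of the 7 genes concerned are uncertain to that extent. For mt-Nd1, mt-Nd2, mt-Nd5, mt-Nd6, mt-Cytb and mt-Atp8 no copy met these limits.

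Values are TPM, a length-corrected share of the library's transcripts, which sum to 1000000 in each library and keep no read depth, so a gain in one class lowers all others. TIS sEV replicate 2 stood apart: nuclear ribosomal RNA genes held 22.9% of its TPM against 0.807% to 2.40% in the other 6 libraries, and nuclear protein-coding genes 28.6% against 56.8% to 74.7%. The 6 epithelial genes of the marker list were all detected, with a summed level of 1432 to 4237 TPM in saline, 2650 in Cont sEV and 522 to 2426 in TIS sEV. For tissues rich in mitochondria, 7 skeletal muscle genes summed to 3.20 to 60.3 TPM in saline, 10.0 in Cont sEV and 2.12 to 5.17 in TIS sEV, with Myh4 under 1 TPM in every library. Of 4 brown fat genes, Ucp1, Cidea and Cox8b were under 1 TPM in every library. The other, Cox7a1, a cytochrome c oxidase subunit that muscle expresses too, read 3.57, 6.91 and 4.36 TPM in saline, 10.3 in Cont sEV and 7.64, 8.40 and 12.3 in TIS sEV, so that every vesicle-treated library was above saline. The 4 genes summed to 3.57 to 6.91 TPM in saline, 10.3 in Cont sEV and 7.91 to 12.3 in TIS sEV. Summed levels of 4 neutrophil genes were 1155 to 5957 TPM in saline, 480 in Cont sEV and 949 to 1723 in TIS sEV, and those of 5 macrophage genes were 292 to 925, 673 and 363 to 957. In bulk tumour RNA, fewer cells of a type and less RNA per cell cannot be told apart, and the part of these cell types in the results below was not tested.

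Mitochondrial mRNA was a large share of every library and did not separate the groups. The 13 mRNAs held 21.1%, 12.5% and 11.9% of the TPM in saline replicates 1 to 3, 9.65% in Cont sEV and 15.9%, 15.3% and 13.6% in TIS sEV replicates 1 to 3. The highest and the lowest of the 6 saline and TIS sEV values were both saline libraries. The log2 share differed by 0.028 between TIS sEV and saline (two-sided exact permutation test, p = 1; the smallest p that 3 against 3 allows is 0.1). The copies on chromosome 1 held 39.0% to 53.9% of the TPM of genes and copies together, more than the genes themselves in Cont sEV and TIS sEV replicate 3. As a share of the library they held 15.3%, 7.98% and 8.70% in saline, 10.7% in Cont sEV and 13.8%, 15.1% and 15.9% in TIS sEV. Genes and copies together made up 36.3%, 20.4% and 20.6% in saline, 20.4% in Cont sEV and 29.7%, 30.4% and 29.4% in TIS sEV, and saline replicate 1 was the highest of all.

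**Figure D1:**
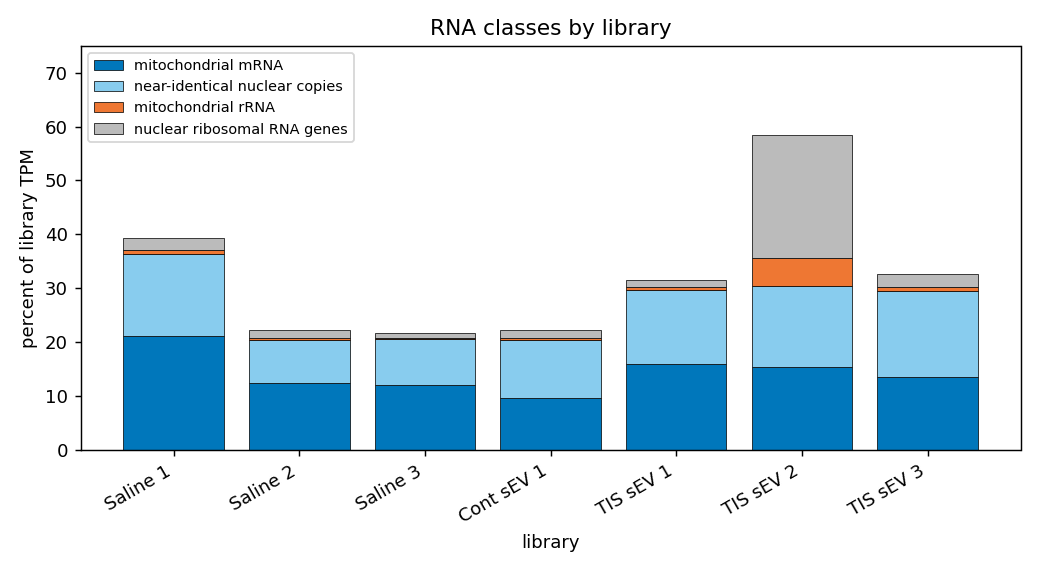
Percent of each library's TPM (y axis) held by mitochondrial mRNA, its near-identical nuclear copies, mitochondrial rRNA and nuclear ribosomal RNA genes, stacked, for the 7 libraries (x axis). Mitochondrial mRNA ranges from 9.65% in Cont sEV to 21.1% in saline replicate 1, and nuclear ribosomal RNA genes reach 22.9% in TIS sEV replicate 2.

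The mitochondrial rRNAs were low beside the mRNAs in 6 libraries and high in 1. mt-Rnr1, the 12S rRNA of the small ribosomal subunit (chrM:70-1024), read 4216, 1596 and 974 TPM in saline, 2113 in Cont sEV and 2518, 26345 and 3568 in TIS sEV. mt-Rnr2, the 16S rRNA of the large subunit (chrM:1094-2675), read 4327, 1820 and 961 TPM in saline, 2241 in Cont sEV and 2073, 24977 and 3475 in TIS sEV. For both rRNAs, TIS sEV replicate 2 was far above the other libraries, the library in which nuclear ribosomal RNA was also high, while the other TIS sEV libraries lay within the saline range. The fitted log2 differences of TIS sEV from saline, 1.72 for mt-Rnr1 (SE 0.49, limma adjusted p = 0.0721) and 1.52 for mt-Rnr2 (SE 0.49, limma adjusted p = 0.194), did not pass 0.05. Without TIS sEV replicate 2 they were 0.68 and 0.45. mt-Rnr1 passed when saline replicate 1, TIS sEV replicate 1 or TIS sEV replicate 3 was left out (limma adjusted p = 0.0264, 0.00310 and 0.0460) and with a pseudocount of 0.1 (0.0467), and mt-Rnr2 passed once TIS sEV replicate 1 was left out (0.00712).

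The 12S and 16S rRNAs kept close to 1 to 1 where their levels differed most. The ratio of mt-Rnr1 to mt-Rnr2 TPM was 0.974, 0.877 and 1.01 in saline, 0.943 in Cont sEV and 1.21, 1.05 and 1.03 in TIS sEV. The 3 TIS sEV values lay just above the 3 saline values, a log2 difference of 0.20 (two-sided exact permutation p = 0.1, 0.2 adjusted over the 4 ratios tested). Against the mRNAs, rRNA was 1.60 higher on the log2 scale in TIS sEV than in saline with overlapping groups (exact permutation p = 0.2, adjusted 0.2), and this value was 0.56 without TIS sEV replicate 2. As a percentage of the TPM of all 37 genes, rRNA was 3.90%, 2.67% and 1.60% in saline, 4.31% in Cont sEV and 2.80%, 25.1% and 4.94% in TIS sEV. The library method is described only as standard Illumina, and whether polyadenylated RNA was selected is not given in the sources used here.

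In the main limma fit, the light-strand mRNA mt-Nd6 was the only member called higher in TIS sEV tumours than in saline. That call was lost in several alternatives given below. mt-Nd6 codes for a membrane subunit of complex I, the NADH dehydrogenase (chrM:13552-14070, minus strand). It read 434, 206 and 151 TPM in saline, 853 in Cont sEV and 470, 5551 and 1590 in TIS sEV. The value of 5551 was from TIS sEV replicate 2, the library in which nuclear ribosomal RNA genes held 22.9% of the TPM. All 3 TIS sEV libraries and the Cont sEV library were above all saline libraries, but TIS sEV replicate 1 was above saline replicate 1 by a small margin only. The fitted log2 difference of TIS sEV from saline was 2.75 (SE 0.56, limma adjusted p = 0.000581). This SE came from the abundance trend over all genes, while mt-Nd6 itself spread widely in TIS sEV (mean 2537 TPM, SD 2670). The Cont sEV library differed from saline by 1.84 (SE 0.79, limma adjusted p = 0.9997), which did not pass with all libraries and passed with TIS sEV replicate 2 left out (0.00147).

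Set against the heavy-strand mRNAs, mt-Nd6 was a small part of the mitochondrial mRNA everywhere. It made up 0.206%, 0.165% and 0.127% of the 13 mRNAs in saline, 0.883% in Cont sEV and 0.295%, 3.62% and 1.17% in TIS sEV. All 3 TIS sEV libraries and the Cont sEV library were again above saline, with TIS sEV replicate 1 the nearest to it. The log2 ratio of mt-Nd6 to the summed heavy-strand mRNAs was 2.75 higher in TIS sEV than in saline, with the groups apart (two-sided exact permutation p = 0.1, the smallest possible, 0.2 adjusted over the 4 ratios). Leaving out TIS sEV replicate 2 gave 1.86, leaving out TIS sEV replicate 1 gave 3.70, and the value was 2.61 with the chromosome 1 copies added to their genes.

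The direction of the mt-Nd6 difference held in every alternative run, but its call did not. The adjusted p was 0.638 without the filter on low values, 0.338 with median-of-ratios size factors, 0.347 with scaling to nuclear protein-coding genes, 0.0511 with scaling to mitochondrial mRNA, 0.0910 without saline replicate 2 and 0.3001 without saline replicate 3, and the difference without TIS sEV replicate 2 was 1.86 (all limma). mt-Nd6 shares 14 bases with mt-Nd5 on the opposite strand, and whether the counting used strand is not given in the sources used here. Whether polyadenylated RNA was selected is not given either, and its bearing on mt-Nd6 was not tested. Without strand, mRNA of mt-Nd5 and mRNA of mt-Nd6 cannot be told apart over the bases they share, nor can mt-Nd6 mRNA and heavy-strand RNA antisense to it.

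**Figure D2:**
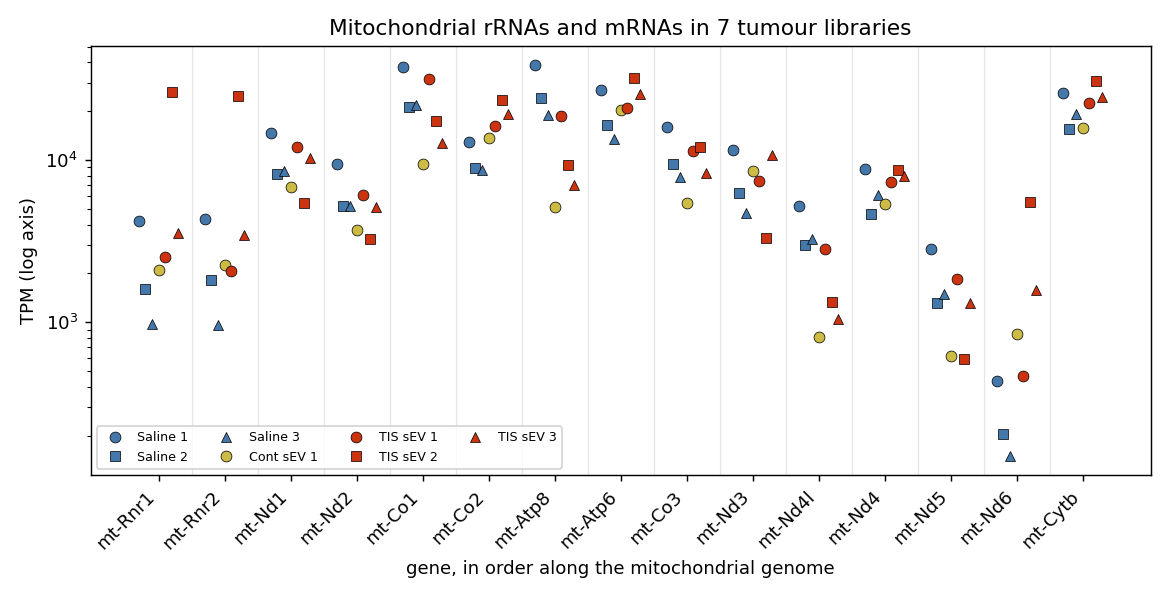
TPM on a log axis (y) of the 2 rRNAs and 13 mRNAs in order along the mitochondrial genome (x), 1 point per library, coloured by group with a marker shape per replicate. mt-Nd6 runs from 151 in saline replicate 3 to 5551 in TIS sEV replicate 2, and both rRNAs are highest in TIS sEV replicate 2.

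The mitochondrial genome codes for 7 subunits of complex I, and among the 6 read from the heavy strand mt-Nd4l was the lowest in vesicle-treated tumours relative to saline, though no difference passed the test with all libraries. mt-Nd4l read 5183, 2981 and 3270 TPM in saline, 813 in Cont sEV and 2822, 1344 and 1046 in TIS sEV. Every vesicle-treated library was below every saline library, although TIS sEV replicate 1 was close to saline replicate 2. The fitted log2 differences were -1.22 for TIS sEV (SE 0.51, limma adjusted p = 0.463) and -2.18 for Cont sEV (SE 0.72, limma adjusted p = 0.494), and neither passed. The TIS sEV difference passed with TIS sEV replicate 2 left out (limma adjusted p = 0.0255), as did the Cont sEV difference (2.13e-06). Its partner mt-Nd4, whose coding sequence follows on the same mRNA, read 8851, 4620 and 6071 TPM in saline, 5349 in Cont sEV and 7366, 8637 and 7949 in TIS sEV, with the groups overlapping. The other membrane subunits mt-Nd1 (5463 to 14580 TPM over the 7 libraries), mt-Nd2 (3260 to 9479), mt-Nd3 (3315 to 11544) and mt-Nd5 (598 to 2829) overlapped between saline and TIS sEV in TPM. As a share of the 13 mRNAs, mt-Nd2 was 4.50%, 4.20% and 4.34% in saline, 3.82% in Cont sEV and 3.81%, 2.13% and 3.797% in TIS sEV, below saline in every vesicle-treated library. None of these 5 mRNAs passed the test in either comparison with saline, except that mt-Nd5 passed in Cont sEV with TIS sEV replicate 2 left out (log2 difference -1.51, limma adjusted p = 0.00967).

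mt-Cytb, the cytochrome b subunit of complex III and the only one that this genome encodes, was among the more abundant mRNAs. It read 26064, 15507 and 19147 TPM in saline, 15726 in Cont sEV and 22625, 30505 and 24608 in TIS sEV, and the groups overlapped (log2 difference 0.38, SE 0.41, limma).

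The 3 mRNAs of complex IV, cytochrome c oxidase, stood in different orders across the libraries. mt-Co1, the catalytic subunit, read 37687, 21384 and 21761 TPM in saline, 9492 in Cont sEV and 31703, 17503 and 12670 in TIS sEV. mt-Co2, which takes electrons from cytochrome c, read 12852, 8951 and 8712 TPM in saline, 13672 in Cont sEV and 16327, 23450 and 19255 in TIS sEV. mt-Co3, the third core subunit, ranged from 5407 to 15927 TPM. For mt-Co2 the TIS sEV and Cont sEV libraries were all above saline, while for mt-Co1 and mt-Co3 the saline and TIS sEV libraries overlapped. None passed in either comparison with saline (mt-Co2 log2 difference 0.96, limma adjusted p = 0.476, TIS sEV against saline), except that mt-Co1 passed in Cont sEV with TIS sEV replicate 2 left out (-1.45, limma adjusted p = 0.00143).

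The ATP synthase genes gave the other member that passed a test, in the single Cont sEV library. mt-Atp8, a small subunit of the membrane part (chrM:7766-7969), read 38290, 24116 and 18928 TPM in saline, 5107 in Cont sEV and 18690, 9364 and 7061 in TIS sEV. All 4 vesicle-treated libraries were below saline, though TIS sEV replicate 1 was just under saline replicate 3. In Cont sEV against saline mt-Atp8 fell by 2.35 on the log2 scale (SE 0.60, limma adjusted p = 0.0439), a difference resting on 1 library. For TIS sEV the difference was -1.27 (SE 0.42, limma adjusted p = 0.243) and did not pass, although it did once TIS sEV replicate 1 (0.0318) or replicate 2 (0.00180) was left out. The Cont sEV call was lost without saline replicate 1, 2 or 3 (limma adjusted p = 0.578, 0.676 and 0.341), without TIS sEV replicate 1 (0.0509), without the filter (0.859), and with all 3 other scalings (0.321 to 1). mt-Atp6, the proton channel subunit that follows on the same mRNA, read 26855, 16353 and 13436 TPM in saline, 20468 in Cont sEV and 20805, 32181 and 25499 in TIS sEV, and did not pass (log2 difference 0.51).

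The pairs that share an mRNA can be read against each other within a library, where scaling of the whole library has no part. The length correction of TPM still enters. mt-Atp8 has 204 bases against 681 in mt-Atp6, and mt-Nd4l has 297 against 1378 in mt-Nd4. Whether the length correction moved these ratios between libraries was not tested. These ratios were chosen after the values were seen and are given without a test. mt-Atp8 over mt-Atp6 was 1.43, 1.47 and 1.41 in saline, 0.250 in Cont sEV and 0.898, 0.291 and 0.277 in TIS sEV. mt-Nd4l over mt-Nd4 was 0.586, 0.645 and 0.539 in saline, 0.152 in Cont sEV and 0.383, 0.156 and 0.132 in TIS sEV. In both pairs the saline libraries were close together and high, Cont sEV and TIS sEV replicates 2 and 3 were low, and TIS sEV replicate 1 lay between. The same grouping, though not the same order within it, appeared in mt-Co1 over mt-Co2, genes that do not share an mRNA. That ratio was 2.93, 2.39 and 2.498 in saline, 0.694 in Cont sEV and 1.94, 0.746 and 0.658 in TIS sEV. With the copies added to their genes the first ratio was 0.603, 0.607 and 0.543 in saline, 0.136 in Cont sEV and 0.394, 0.1502 and 0.137 in TIS sEV. The ratio of mt-Co1 to mt-Co2 was then 0.988, 0.931 and 0.881 in saline, 0.513 in Cont sEV and 0.838, 0.592 and 0.499 in TIS sEV, so its log2 difference of TIS sEV from saline went from -1.40 to -0.57. Whether read coverage along these mRNAs differed between libraries was not tested.

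**Figure D3:**
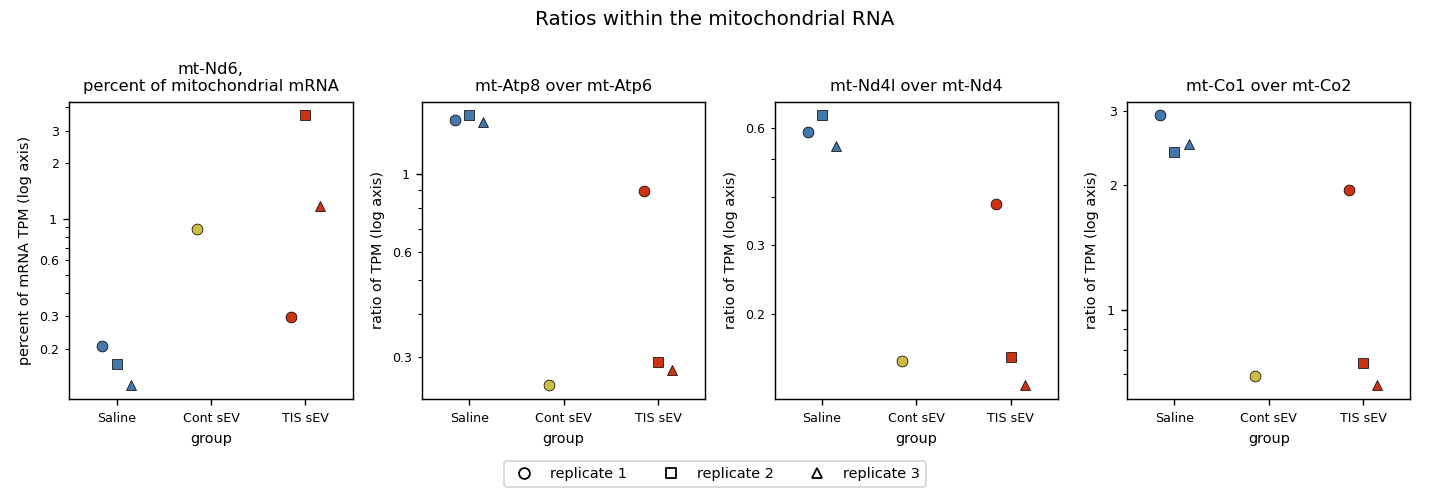
mt-Nd6 as a percent of mitochondrial mRNA TPM and 3 ratios of TPM (y axes, log scale) by group (x axes), 1 point per library with a marker shape per replicate. Saline libraries lie together in each panel, and TIS sEV replicate 1 is the TIS sEV library nearest to them.

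The copies on chromosome 1 took part in this spread to unequal degrees. Gm29216, which covers the last part of mt-Co1, read 0.765, 0.554 and 0.883 times the TPM of mt-Co1 in saline, 4.15 in Cont sEV and 1.29, 3.37 and 4.74 in TIS sEV. Its highest level was 60118 TPM, in TIS sEV replicate 3, above every mitochondrial gene in that library. Gm28661 over mt-Co2 (1.62 to 2.70) and Gm28437 over mt-Co3 (1.61 to 2.43) stayed above 1 in all libraries. Gm28439 over mt-Nd4 was at most 0.00684, although its sequence is identical to part of mt-Nd4. TPM is per length, and a copy that covers 1 end of a gene takes reads from that end alone, so these ratios are not levels of nuclear transcripts.

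**Figure D4:**
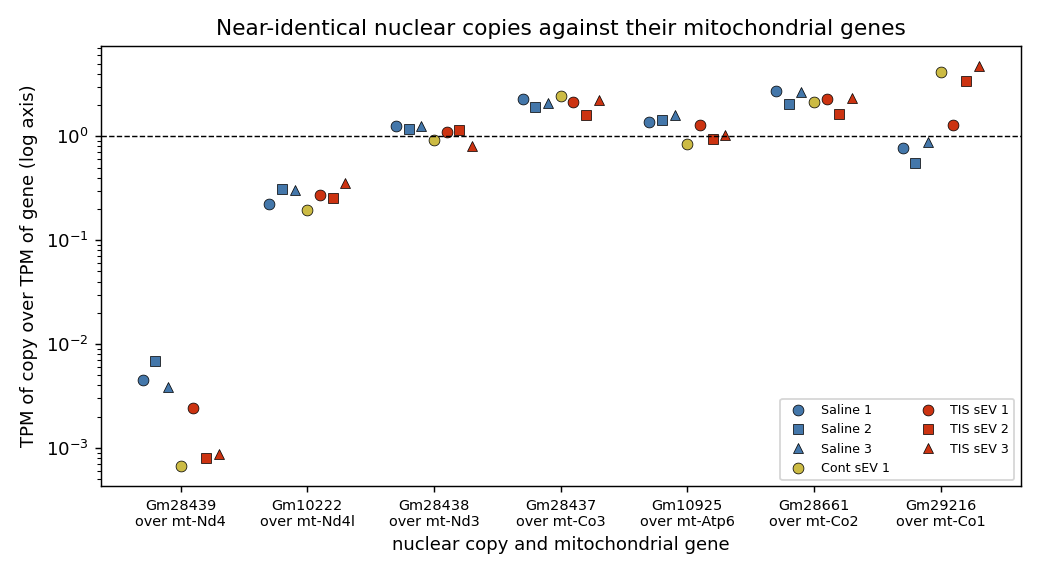
TPM of each near-identical nuclear copy over that of its mitochondrial gene (y axis, log scale; dashed line at 1), for 7 copy and gene pairs (x axis), 1 point per library. Gm29216 over mt-Co1 is under 1 in all 3 saline libraries and 1.29 to 4.74 in TIS sEV.

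Hardly any tRNA was recorded. Of the 22 tRNAs, 15 were listed at 0 in all 7 libraries, and the 22 together held 0.000331% to 0.0120% of the TPM. The tRNA genes are 59 to 75 bases long. Whether the libraries kept RNA this short was not tested, so these values may not follow tRNA levels. mt-Tm, the methionine tRNA (chrM:3845-3913, plus strand), was the most regularly listed. mt-Nd2 starts right after it, at chrM:3914, and whether mt-Tm reads came from the tRNA or from longer RNA was not tested. The sequence of mt-Tm is shown with the anticodon in capitals.
mt-Tm: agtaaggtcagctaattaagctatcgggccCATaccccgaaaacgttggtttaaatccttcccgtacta
It read 11.2, 5.75 and 3.31 TPM in saline, 12.96 in Cont sEV and 14.5, 86.7 and 27.3 in TIS sEV. All vesicle-treated libraries were above saline, with TIS sEV replicate 2 again the highest. The log2 difference of TIS sEV from saline was 2.25 (SE 0.66, limma adjusted p = 0.0989) and did not pass, but it did without TIS sEV replicate 1 (0.00801) or replicate 2 (0.0201). mt-Tg, the glycine tRNA and the other one to pass the filter, was listed between 0 and 20.3 TPM (log2 difference 0.72, limma adjusted p = 0.506). The remaining 5 with any value, mt-Tl1, mt-Tw, mt-Tn, mt-Ts1 and mt-Te, were listed in 1 or 2 libraries each at up to 16.8 TPM. The 8 light-strand tRNAs were listed at 0 in all saline libraries, so their ratio to the heavy-strand tRNAs could not be computed. The log2 ratio of all tRNAs to the mRNAs was 2.30 higher in TIS sEV, with overlapping groups (exact permutation p = 0.2, adjusted 0.2). It was 1.62 with TIS sEV replicate 2 left out and 3.17 with TIS sEV replicate 1 left out, the lowest and highest of these values. Taken as geometric means of TPM + 1 over the genes of each class, it was 0.24 (exact permutation p = 0.5).

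Over all members, 17 of the 37 passed the filter of at least 1 TPM in at least 3 libraries: the 13 mRNAs, both rRNAs, mt-Tm and mt-Tg. In TIS sEV against saline, 1 of the 17 was higher (mt-Nd6) and 0 were lower, beside 0.348% and 0.166% of the 12058 genes tested, 0.514% in all (limma, adjusted p under 0.05), and 7 of the 17 had an unadjusted p under 0.05, beside 10.3% of all genes. The median log2 difference was 0.34 for the 17 members, -0.12 for the 13 mRNAs and -0.62 for all genes tested. The sign for the mRNAs hung on the scaling and on single libraries. With size factors their median was 0.68 beside -0.0037 for all genes, and with scaling to nuclear protein-coding genes 0.35 beside -0.29. With scaling to mitochondrial mRNA it was -0.15 beside -0.65. In TPM it was positive without saline replicate 1 (0.24 beside -0.79) or without TIS sEV replicate 2 (0.15 beside -0.19). In TIS sEV against saline the mRNA median was above that of all genes in each of these fits. For Cont sEV against saline with all libraries it was below: -0.57 beside -0.33 for all genes in TPM and -0.17 beside -0.0023 with size factors. It was -0.69 beside -0.45 with scaling to nuclear protein-coding genes, and 0.032 beside 0.16 with scaling to mitochondrial mRNA. Without saline replicate 1 the Cont sEV relation reversed in TPM, with -0.30 for the mRNAs beside -0.49 for all genes. In Cont sEV against saline, 0 were higher and 1 was lower (mt-Atp8), beside 0.133% and 0.0746% of all genes (0.207% in either direction), and 5 had an unadjusted p under 0.05, beside 2.33% of all genes. In TIS sEV against Cont sEV, 0 of the 17 were called by limma, beside 0.224% of all genes (0.141% higher and 0.0829% lower), and 1, mt-Rnr1, had an unadjusted p under 0.05, beside 1.73% of all genes. The comparisons with saline share the saline libraries. Groups of TIS sEV and saline did not overlap in TPM for 5 of the 17 (mt-Tm, mt-Co2 and mt-Nd6 above, mt-Atp8 and mt-Nd4l below), beside 14.3% of all genes, with 0.862% above and 13.5% below. As a share of the 13 mRNAs, groups did not overlap for 5 of the 13 (mt-Co2 and mt-Nd6 above, mt-Nd2, mt-Atp8 and mt-Nd4l below), beside 3.02% of all genes scaled to the mitochondrial mRNA.

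**Figure D5:**
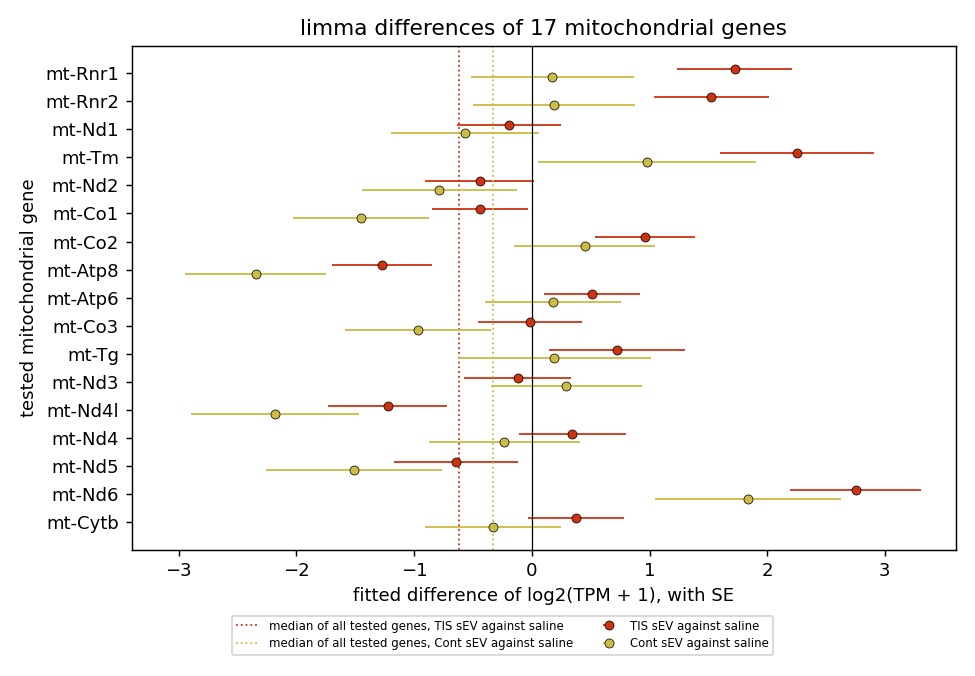
Fitted log2(TPM + 1) differences from saline with their standard errors (x axis) for the 17 tested mitochondrial genes in genome order (y axis), for TIS sEV and Cont sEV, with dotted lines at the median of all tested genes. mt-Nd6 has the largest TIS sEV difference, 2.75, and mt-Atp8 the lowest Cont sEV difference, -2.35.

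The nuclear genes that transcribe, replicate and process the products of the mitochondrial genome had a median difference close to that of all genes in TIS sEV against saline. Of 56 listed symbols 55 were found and tested. Among these, 0 were higher and 0 lower in TIS sEV than in saline (limma, adjusted p under 0.05), beside 0.514% of all genes. Only 1, Tfam, had an unadjusted p under 0.05, beside 10.3%. Their median log2 difference was -0.61 against -0.62 for all genes, and 28 of the 55 lay above the median gene. Tfam, which packages the DNA and starts transcription, read 25.4, 38.6 and 41.6 TPM in saline, 18.8 in Cont sEV and 20.1, 7.02 and 12.96 in TIS sEV. All TIS sEV values of Tfam were below all saline values (log2 difference -1.41, SE 0.65, limma adjusted p = 0.476). The same held for 13.5% of all genes tested, and for other genes of the lists, among them Trnt1 and Primpol. In the other lists the lowest differences were those of Polg (-1.07, the DNA polymerase), Trnt1 (-0.90, which adds CCA to tRNAs), Pnpt1 (-0.88, an exonuclease of RNA decay) and Elac2 (-0.81, which cuts the 3′ ends of tRNAs). The highest were those of Slirp (-0.0018, an mRNA-stabilising protein), Pus1 (-0.16, a pseudouridine synthase), Mterf1b (-0.17), Fastkd3 (-0.17) and Tk2 (-0.17, a nucleoside kinase). In Cont sEV against saline, 0 of the 55 were called by limma and their median was -0.13 against -0.33, with 39 above the median gene and 0 at an unadjusted p under 0.05, beside 0.207% called and 2.33% at an unadjusted p under 0.05 over all genes.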

How the data were processed

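RNA of 7 mouse tumours (3 saline, 1 Cont sEV, 3 TIS sEV) was analysed from 1 table of gene TPM that the authors deposited, each column summing to 1000000. Salmon 1.4.0, DESeq2 1.28.0, FastQC 0.11.9, Trim Galore 0.6.6 and the build GRCm38.p6 are named, per the submitters' processing notes, without their roles; the sources used here do not give the annotation, strand setting or transcript-to-gene step. Because TPM carries no read numbers, depth is unknown and intervals for counting error are left out. The column names abbreviate the groups (CE read as Cont sEV, NcE as TIS sEV), a reading the labels do not spell out. Symbols, coordinates and sequences come from GENCODE M21 (GRCm38), which held 55227 of the 55487 identifiers.

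log2(TPM + 1) was fitted with limma 3.58.1 in R 4.3.3 (trend, 1 mean per group over all 7 libraries), two-sided, for the 12058 genes of at least 1 TPM in at least 3 libraries. Benjamini-Hochberg adjustment ran over all of them, with a threshold of 0.05. The script was tested on simulated data with the same spread in all groups and no outlying library. Such a test does not cover a library like TIS sEV replicate 2. Ratios were compared with exact permutation tests (scipy 1.17.1). Nuclear copies were found with blastn 2.17.0 against annotated transcripts (at least 99% identity, 90% of the copy and 100 bases aligned), and their TPM was weighted by length when added to a gene. All 37 members could be named, with the highest and lowest member of each of 5 lists of nuclear genes. The alternatives are other pseudocounts, filters and scalings, a replicate block, added copies and leaving out each library. Members and lists were chosen with earlier results of these data known.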

Additional observations from a re-analysis of the deposited data

How the results depend on the processing

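The mt-Nd6 difference was positive under every alternative run, and its call and the mt-Atp8 call in Cont sEV were lost under those named beside them above; the cause was not tested. Calls over all genes in TIS sEV against saline, 62 as reported, were 0 without the filter on low values, 0 with median-of-ratios size factors, 0 with scaling to nuclear protein-coding genes, 20 with scaling to mitochondrial mRNA, 13 with the replicate block, and 7 to 353 with 1 library left out. In Cont sEV against saline, 25 as reported, they were 233, 1 and 2 under the first 3 of these and 11 to 197 with 1 library left out. In TIS sEV against Cont sEV, 27 as reported, they were 246, 1 and 2, and 10 to 103. Members called in TIS sEV against saline, 1 as reported, were 2 with a pseudocount of 0.1, 0 without the filter and under each of the 3 scalings, and 0 to 5 with 1 library left out. In Cont sEV against saline, 1 as reported, they were 3 without the filter (mt-Te, mt-Tl1 and mt-Ts1, tRNAs listed above 0 in that library alone), 0 under each scaling and 0 to 5 with 1 library left out, and in TIS sEV against Cont sEV, 0 as reported, they were 3 without the filter, the same tRNAs.

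No member whose sign turned was called with all libraries and the settings as reported. In TIS sEV against saline, size factors gave positive log2 differences for mt-Nd1 (0.60), mt-Nd2 (0.35), mt-Co1 (0.36), mt-Co3 (0.78), mt-Nd3 (0.68) and mt-Nd5 (0.15), and nuclear protein-coding scaling for mt-Nd1 (0.28), mt-Nd2 (0.025), mt-Co1 (0.030), mt-Co3 (0.45) and mt-Nd3 (0.35), while adding copies, an alternative chosen after seeing the data like the 3 untested ratios, gave 0.22 for mt-Co1. In Cont sEV against saline, size factors gave mt-Nd4 0.16 and mt-Cytb 0.066, mitochondrial mRNA scaling gave mt-Nd1 0.032, mt-Nd4 0.37 and mt-Cytb 0.27, and adding copies gave mt-Atp6 -0.24. With 1 library left out, TIS sEV differences ranged from -0.42 to 0.15 for mt-Nd1, -0.23 to 0.28 for mt-Co3, -0.50 to 0.36 for mt-Nd3 and -0.23 to 2.05 for mt-Tg, Cont sEV differences from -0.034 to 0.47 for mt-Atp6, -0.45 to 0.014 for mt-Nd4, -0.30 to 0.76 for mt-Rnr1, -0.32 to 0.76 for mt-Rnr2 and -0.77 to 0.87 for mt-Tg, and the log2 mRNA share from -0.12 to 0.29.

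Deviations of same-numbered saline and TIS sEV libraries from their group means correlated at -0.38, -0.0085 and 0.080 across genes. Those of differently numbered libraries correlated at -0.34 to 0.37. With 3 libraries per group, these values cannot show whether replicate numbers pair the libraries. With the replicate block, mt-Nd6 kept its difference of 2.75 (limma adjusted p = 0.0476), and a sign-flip test over 3 pairs cannot go below 0.25. The ratio of light-strand to heavy-strand tRNA was not run.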
